A study of Mus musculus with 6 samples.

Results

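The 10 genes described here are direct transcriptional targets of the tumour suppressor p53, among them several that carry out cell death. They were chosen by name (Cdkn1a, Mdm2, Ccng1, Aen, Zmat3, Pmaip1, Bbc3, Bax, Fas and Rrm2b), as a readout of cell stress or death after loss of β-catenin, and all 10 were found among the 21938 genes of the table. Their RNA was measured in soft palate, the muscular rear part of the palate, from mouse embryos at E14.0. The 3 mutant libraries (replicates 5, 6 and 7) came from Osr2-Cre;b-cateninfl/fl embryos and the 3 control libraries (replicates 1, 2 and 3) from b-cateninfl/fl embryos. Both groups thus carry floxed β-catenin alleles, and only the mutants carry the Cre. Loss of β-catenin and the presence of the Cre and its allele therefore cannot be told apart in this comparison. One field of the labels calls the control genotype wild type, and the protocol's floxed description is used here. The Cre is driven from the Osr2 gene, which is active in palatal mesenchyme, so other cells of the tissue may keep β-catenin. Which cells lost it was not measured here. Whether a library holds 1 embryo or a pool is not stated, so the p-values reflect only how these libraries vary, which may in part be technical.

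p53 is a transcription factor that is held at a low level by Mdm2, a ubiquitin ligase, and by the related Mdm4. When DNA is damaged or growth is disturbed, p53 accumulates and switches on genes that stop the cell cycle (Cdkn1a), repair or supply DNA (Rrm2b), limit p53 itself (Mdm2, Ccng1) or kill the cell (Bbc3, Pmaip1, Bax, Fas). Because p53 acts on these genes by binding a recurring DNA element, their RNA levels are widely used as a sign of p53 activity, and excess p53 in the embryonic head is known to cause craniofacial defects in mice. The element is made of a pair of ten-base half-sites of the pattern called the p53 half-site decamer, which reads the same on both strands.

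The promoters of these genes were read first, since the half-site is what the members are known to share. RefSeq promoter windows (GRCm38.p6, 250 bases before to 50 after a transcription start) were matched by symbol for 7 of the 10 members, in 11 windows. Zmat3, Pmaip1 and Rrm2b had no entry shown here. At least 1 half-site decamer lay in a window of 5 of the 7 members (Cdkn1a, Mdm2, Ccng1, Aen and Bax), against 9.55% of the 27025 genes in the promoter table and 8.36% of all 32851 windows. A pair of half-sites at most 13 bases apart was found in 1 of the 7, Cdkn1a, and in 0.074% of all genes. Only full matches were counted or marked, so a decamer that departs from the pattern at 1 base is left out. Which decamers p53 binds was not measured. The windows of Cdkn1a and Mdm2 are shown because they carry matches in the main effector and the main inhibitor of the pathway, and that of Fas because Fas had the highest log2 change of the 10. Capitals mark half-sites, and a match describes these letters only.
Cdkn1a (chr17:29090729-29091028, plus strand): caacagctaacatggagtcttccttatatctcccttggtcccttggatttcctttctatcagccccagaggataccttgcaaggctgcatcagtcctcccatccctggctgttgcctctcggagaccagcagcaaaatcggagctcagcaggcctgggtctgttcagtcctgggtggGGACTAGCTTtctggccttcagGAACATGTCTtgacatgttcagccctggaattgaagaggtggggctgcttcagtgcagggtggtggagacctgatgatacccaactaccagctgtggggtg
Mdm2 (chr10:117710709-117711008, minus strand): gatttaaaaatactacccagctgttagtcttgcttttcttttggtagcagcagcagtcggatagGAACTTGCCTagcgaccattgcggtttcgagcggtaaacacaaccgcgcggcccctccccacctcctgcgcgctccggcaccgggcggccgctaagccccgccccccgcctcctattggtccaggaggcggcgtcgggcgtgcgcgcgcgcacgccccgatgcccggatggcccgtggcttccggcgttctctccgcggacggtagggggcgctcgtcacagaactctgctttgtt
Fas (chr19:34290409-34290708, plus strand): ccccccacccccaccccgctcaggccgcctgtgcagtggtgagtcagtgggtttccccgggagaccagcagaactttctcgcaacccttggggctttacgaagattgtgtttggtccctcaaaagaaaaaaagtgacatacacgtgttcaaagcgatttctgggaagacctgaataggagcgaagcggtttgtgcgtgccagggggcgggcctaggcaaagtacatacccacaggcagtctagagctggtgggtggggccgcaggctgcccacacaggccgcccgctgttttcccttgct

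The Cdkn1a window held half-sites beginning 73 and 51 bases before the start, and a second Cdkn1a start further along the gene had none. The Mdm2 window held 1, beginning 186 bases before the start. The Fas window and the 3 windows of Bbc3 held none, which says only that this pattern is not in these stretches. The matches of the other members are shown with 10 bases on each side, because they let the half-sites be compared letter by letter. In Ccng1 the match began 185 bases and in Bax 201 bases before the start. The Aen match began 121 bases before one start and 10 bases after the other. A different short motif, the GC box GGGCGG (searched on both strands), was in a window of 6 of the 7 members and in 38.2% of all genes.
Ccng1 half-site (chr11:40755462-40755471, minus strand): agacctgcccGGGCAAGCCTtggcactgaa
Bax half-site (chr7:45467090-45467099, minus strand): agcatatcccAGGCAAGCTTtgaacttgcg
Aen half-site (chr7:78895937-78895946, plus strand): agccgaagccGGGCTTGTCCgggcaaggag

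**Figure D1:**
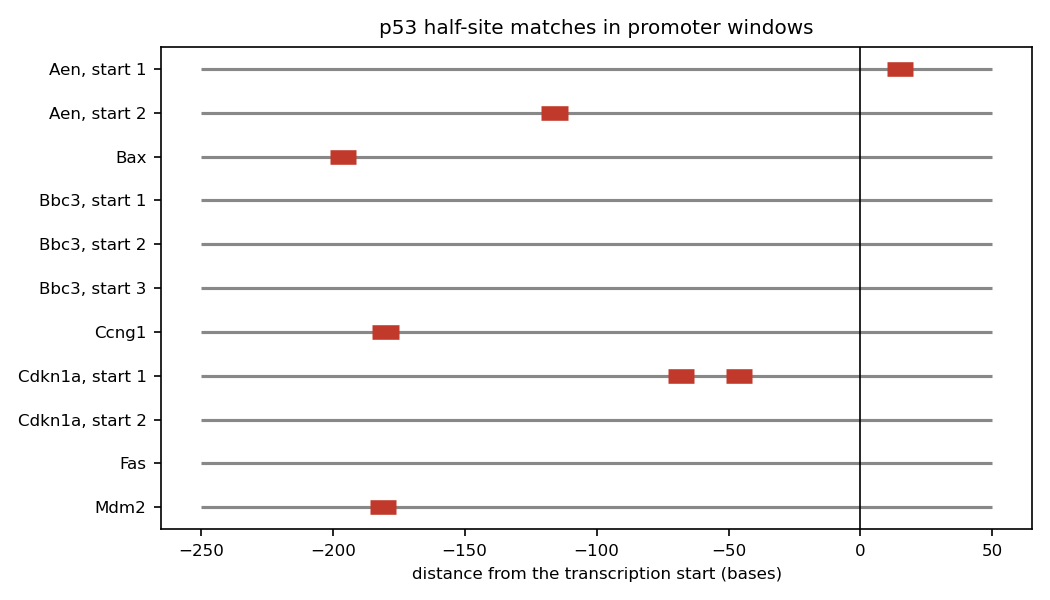
Positions of p53 half-site decamers (red blocks) in the 11 RefSeq promoter windows of 7 members, drawn as grey lines from 250 bases before to 50 after the transcription start (x axis, bases; genes with several starts have one line per start). Cdkn1a has 2 blocks in its first window, while Fas and Bbc3 have none.

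The libraries were similar in depth. From the step between low values, an estimated 12272586 to 15088912 reads were counted in mutant and 10018519 to 12842384 reads in control libraries. Over genes, pairs of libraries had a Pearson r of 0.981 to 0.988 among mutants, 0.981 to 0.986 among controls and 0.970 to 0.981 across genotypes. Ctnnb1, the targeted gene for β-catenin, measured 584.6, 633.4 and 581.5 CPM (a gene's reads scaled to the library total) in mutants, against 698.5, 784.5 and 671.4 CPM in controls. Its groups did not overlap, but it did not pass the threshold (log2 change -0.26 ± 0.10 SE, adjusted p = 0.183 in limma). The value is a total over the gene, so it also holds any reads outside the deleted exons and from cells without Cre. All 9 listed markers of palatal mesenchyme were detected in every library and summed to 842 to 1003 CPM in mutants and 992 to 1170 CPM in controls. One of them passed the threshold, Osr2, the gene that drives the Cre. It measured 12.96, 19.4 and 15.9 CPM in mutants, against 34.5, 56.2 and 49.9 CPM in controls (log2 change -1.47 ± 0.20, adjusted p = 0.0285 in limma). Whether the Cre at this gene has a part in the lower value was not tested. Summed markers of some other cell types also differed between the genotypes. The 15 skeletal muscle markers summed to 4528 to 5628 CPM in mutants and 6859 to 14398 CPM in controls, with 7 of 15 past the threshold and lower. These calls, that of Osr2 and those of all other genes were lost when mutant replicate 5 or 6 or control replicate 1 or 3 was left out, and with a prior variance without trend. The 7 erythroid markers summed to 774 to 1361 CPM in mutants and 1594 to 4725 CPM in controls, and the 9 multiciliated cell markers to 259 to 339 CPM in mutants and 81.6 to 245 CPM in controls. The 7 measured bone and cartilage markers summed to 720 to 1099 CPM in mutants and 339 to 665 CPM in controls. Each of the 7 overlapped between the groups on its own. Much of the difference in sums came from Ibsp, at 571.7, 305.9 and 215.0 CPM in mutants, against 46.5, 24.4 and 231.1 CPM in controls. None of the markers of these last types passed the threshold. Sums of epithelial, endothelial, macrophage, neuron and glial markers overlapped between the groups. No measured marker of any of these types was at 0 in any library. Their part in the levels given below was not tested, and in such bulk tissue fewer cells of a type and less RNA per cell cannot be told apart.

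None of the 10 members passed the threshold between mutant and control, an adjusted p below 0.05 in limma over all 21938 genes, against 0.479% of all genes. By fitted value 5 lay on each side of no change: Fas, Mdm2, Rrm2b, Aen and Zmat3 had positive and Pmaip1, Ccng1, Cdkn1a, Bax and Bbc3 negative log2 changes. The median log2 change of the 10 was 0.00038, beside 0.04 for all genes, and the values ran from -0.29 to 0.46. At an unadjusted p below 0.05 there were 2 members, Mdm2 and Fas, both higher in mutants, where 21.4% of all genes had such a p (13.4% higher and 8.07% lower in mutants). The 3 mutant values lay wholly above the 3 control values for Mdm2 and Fas and wholly below them for Bbc3, which makes 3 of 10 members beside 27.8% of all genes (17.1% with mutants above and 10.8% with mutants below). Both shares are near those of the whole table. The exact two-sided permutation test over libraries cannot go below 0.1 with 3 against 3, the value that these 3 genes had.

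**Figure D2:**
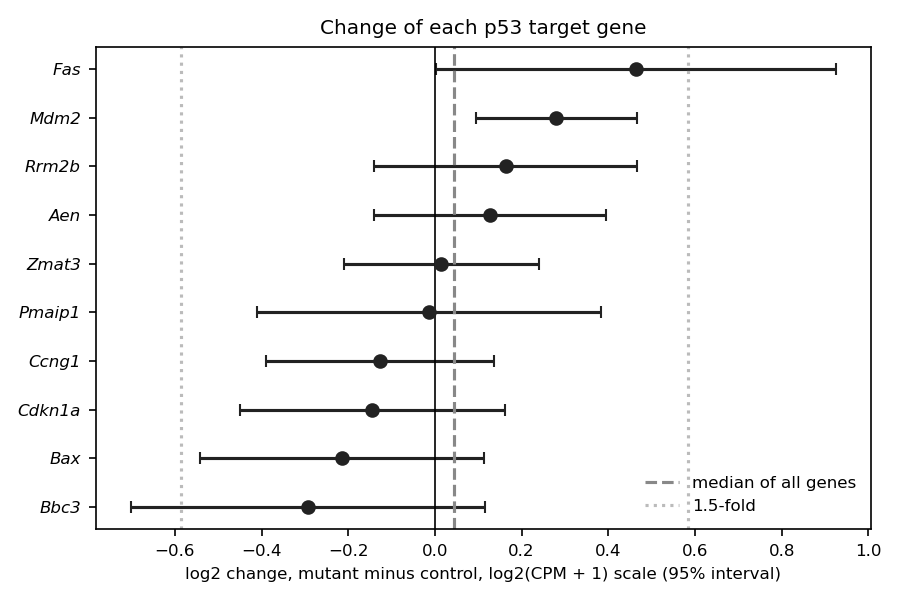
Log2 change of each member, mutant minus control, on the log2(CPM + 1) scale (x axis), with 95% intervals from limma; the dashed line is the median of all genes and the dotted lines are 1.5-fold. Only the intervals of Mdm2 and Fas leave out 0, and those of Fas and Bbc3 reach past 1.5-fold.

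The first group of members limits p53 or follows its activity as feedback. Mdm2 (chr10:117688875-117710758, GRCm38) measured 82.1, 83.1 and 84.5 CPM in mutants, against 69.4, 70.7 and 65.1 CPM in controls. All mutant libraries were above all controls, and the mutants were within 2.44 CPM of each other. The mean was 83.2 ± 1.23 CPM in mutants and 68.4 ± 2.94 CPM in controls (SD, n = 3 each). The log2 change was 0.28 ± 0.08 (SE; adjusted p = 0.114 in limma). Taken for this gene alone, the 95% interval of the fold ran from 1.07 to 1.38. Mdm2 had the lowest unadjusted p of the 10, 0.00775 in limma, and stayed below 0.05 unadjusted with each library left out in turn.

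Ccng1 encodes cyclin G1, a p53 target that takes part in the Mdm2 feedback. It measured 65.8, 60.4 and 49.8 CPM in mutants, against 65.3, 60.1 and 65.9 CPM in controls. The groups overlapped, and mutant replicate 7 was the lowest of the 6 libraries. The log2 change was -0.13 ± 0.12 (adjusted p = 0.561 in limma). Zmat3, an RNA-binding zinc finger protein induced by p53, measured 44.4, 39.4 and 40.1 CPM in mutants, against 39.1, 43.8 and 39.6 CPM in controls. One library in each group, mutant replicate 5 and control replicate 2, stood above the other four, and the 95% interval of the fold was 0.865 to 1.18, the narrowest of the 10 on the log2 scale except that of Mdm2.

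Cdkn1a, which encodes p21, an inhibitor of cyclin-dependent kinases and the best known p53 target in cell cycle arrest (chr17:29090976-29100727, GRCm38), did not differ between the groups beyond their spread. It measured 41.6, 45.0 and 43.9 CPM in mutants, against 44.5, 59.5 and 42.1 CPM in controls. Control replicate 2 was the highest library, and the other 5 lay between 41.6 and 45.0 CPM. The log2 change was -0.14 ± 0.13 (adjusted p = 0.569 in limma), and it was 0.0062 without control replicate 2. The 95% interval of the fold with all libraries was 0.732 to 1.118. Rrm2b, the p53-induced small subunit of ribonucleotide reductase that supplies deoxynucleotides for repair, measured 15.9, 15.02 and 13.9 CPM in mutants, against 13.8, 11.7 and 14.2 CPM in controls. Mutant replicate 7 lay among the controls, and the log2 change was 0.16 ± 0.13 (adjusted p = 0.514 in limma). An annotated gene on the opposite strand, Gm49085, overlaps exons of Rrm2b and measured 2.88 CPM in mutants and 1.66 CPM in controls. No source used here says whether reads were assigned by strand, so reads of this pair cannot be told apart. The same holds for Cdkn1a and the opposite-strand transcript AC167363.2, which is not among the genes of the table.

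Bbc3, Bax and Pmaip1 start or carry out the mitochondrial path of cell death, and none of them passed the threshold in either direction. Bbc3, which encodes PUMA, a killer protein of the BH3-only class (chr7:16308393-16318205, GRCm38), measured 2.85, 2.89 and 2.25 CPM in mutants, against 3.28, 3.49 and 3.66 CPM in controls. All mutants were below all controls, at about 35, 38 and 34 reads in mutants and 41, 35 and 47 reads in controls, so counting error is a large part of each value. The log2 change was -0.29 ± 0.18 (adjusted p = 0.382 in limma) and the 95% interval of the fold was 0.615 to 1.08. Bax, which permeabilises the outer mitochondrial membrane, measured 13.9, 17.7 and 16.8 CPM in mutants, against 17.0, 21.6 and 18.0 CPM in controls. The groups overlapped, and the log2 change was -0.21 ± 0.14 (adjusted p = 0.424 in limma). An annotated gene on the same strand, Gm45808, shares exons with Bax and is not among the genes of the table, so reads of both may stand under Bax. Pmaip1, which encodes NOXA, another BH3-only protein (chromosome 18), measured 9.94, 10.9 and 7.16 CPM in mutants, against 9.52, 9.18 and 9.19 CPM in controls. The mutants spanned 3.71 CPM and the controls 0.335 CPM, with mutant replicate 7 the lowest of all. The log2 change was -0.01 ± 0.17 (adjusted p = 0.971 in limma).

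The other 2 members act at the cell surface and in the nucleus. Fas, the death receptor that recruits caspase-8 when bound by its ligand (chr19:34290666-34327772, GRCm38), measured 4.40, 4.49 and 4.24 CPM in mutants, against 2.88, 3.79 and 2.18 CPM in controls. All mutants were above all controls. The mutants were within 0.244 CPM of each other and the controls spread over 1.61 CPM. These levels are about 54, 59 and 64 reads in mutants and 36, 38 and 28 reads in controls. The log2 change, the largest of the 10, was 0.46 ± 0.20 (adjusted p = 0.23 in limma), and the 95% interval of the fold ran from 1.00 to 1.90. The unadjusted limma p was 0.0487 with all libraries, 0.0131 without control replicate 2, and 0.0903 to 0.160 without any 1 of the other libraries. Aen, a nuclease that p53 induces in apoptosis, measured 32.5, 36.3 and 38.6 CPM in mutants, against 31.8, 36.8 and 29.7 CPM in controls. The groups overlapped through control replicate 2, and the log2 change was 0.13 ± 0.12 (adjusted p = 0.569 in limma).

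**Figure D3:**
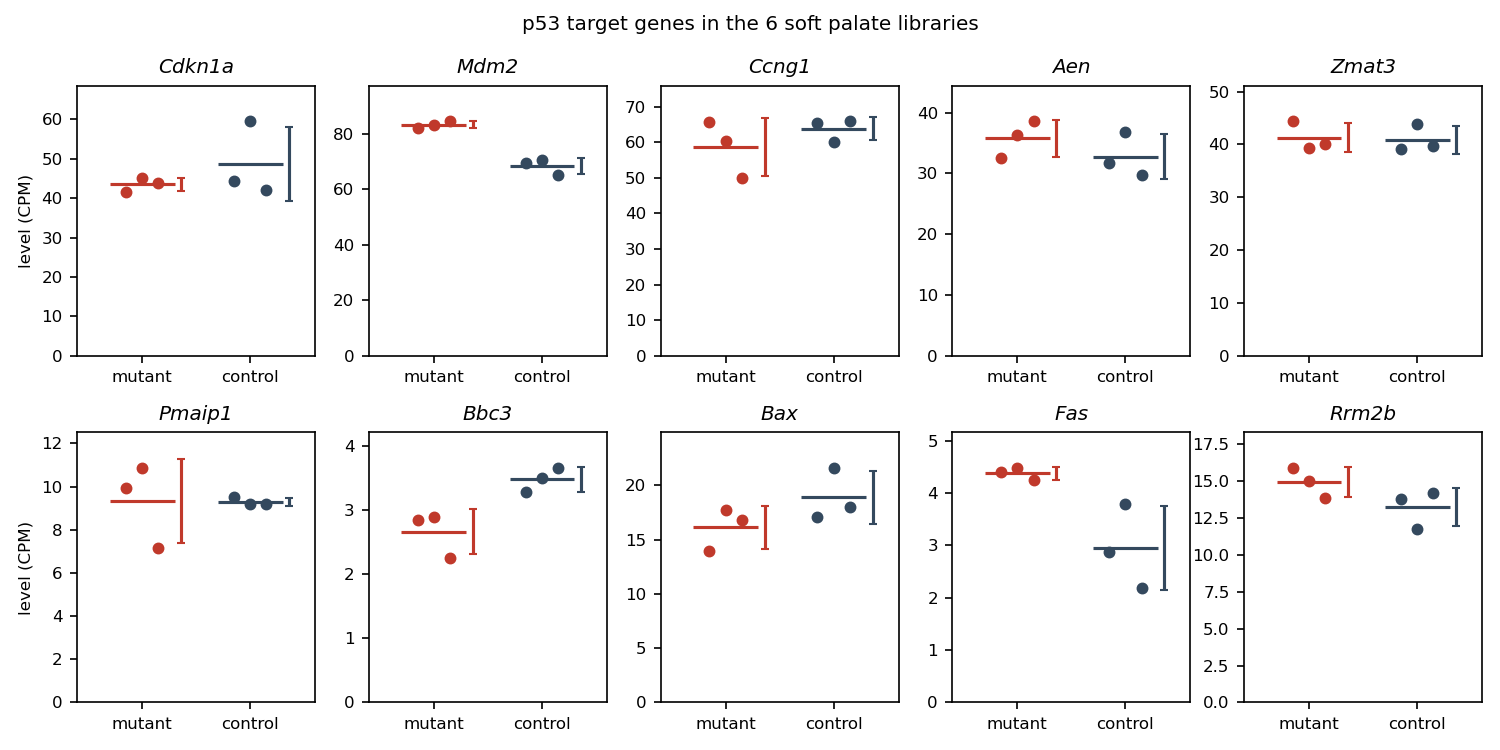
Level of each member in CPM (y axis, from 0) in the 3 mutant (red, left) and 3 control (dark blue, right) libraries; points are libraries in the order of their replicate numbers, horizontal lines are means and bars beside them are 1 SD. Mdm2 and Fas have all mutant points above and Bbc3 all mutant points below the control points, and Cdkn1a has 1 high control point.

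With all 6 libraries and on the log2(CPM + 1) scale, which compresses the change of low genes, the whole 95% interval of the fold lay within 1.5-fold in either direction for 8 of the 10 members. The exceptions were Fas and Bbc3, the members with the fewest reads. For Fas the log2 change was 0.59 with a pseudocount of 0.1 CPM and 0.61 without control replicate 2. The submitters' filtered list of 2432 genes, 11.1% of the table, held none of the 10. No gene in that list had group means less than 1.5-fold apart, and Fas, the member nearest to this, had a ratio of means of 1.48. Bbc3 was next, with a ratio of control to mutant means of 1.31. Of the 5122 genes at least as far apart as the lowest fold in the list, 2690 were not in it. That fold alone therefore did not set the list.

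The members shared no single pattern from library to library. Taking each gene's deviation from its own mean over the 6 libraries, the median deviation of the 10 was 0.10, 0.06 and -0.04 on the log2(CPM + 1) scale in mutant replicates 5, 6 and 7, against -0.03, 0.08 and -0.03 in control replicates 1, 2 and 3. The groups overlap in this median. Control replicate 2 was the highest control for 6 of the 10 (Cdkn1a, Mdm2, Aen, Zmat3, Bax and Fas), beside 43.5% of all genes, and it was also the shallowest library. In mutant replicate 7, Ccng1, Pmaip1 and Bbc3 were at their lowest of the 6 libraries while Mdm2 and Aen were at their highest.

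Divided by the annotated exon length of each gene (GENCODE vM21, GRCm38), the members covered a wide range of levels in an order that was alike in both genotypes. In mutants Ccng1 came first at 16.7 CPM per kb, followed by Mdm2 at 16.4, Cdkn1a at 12.2, Bax at 10.2, Aen at 6.17, Zmat3 at 3.61, Pmaip1 at 3.41, Fas at 2.12, Rrm2b at 1.64 and Bbc3 at 1.25 CPM per kb. In controls Ccng1 was also first at 18.2 CPM per kb, followed by Cdkn1a at 13.7, Mdm2 at 13.5, Bax at 11.98, Aen at 5.65, Zmat3 at 3.57, Pmaip1 at 3.40, Bbc3 at 1.64, Rrm2b at 1.45 and Fas at 1.43 CPM per kb. Neighbours whose libraries overlapped were Ccng1 and Mdm2, and Zmat3 and Pmaip1, in mutants. In controls they were Cdkn1a and Mdm2, Mdm2 and Bax, Zmat3 and Pmaip1, Bbc3 and Rrm2b, and Rrm2b and Fas. By mean, Fas thus stood eighth in mutants and last in controls, and Bbc3 last in mutants and eighth in controls. In controls these places were not resolved. Fas measured 1.396, 1.839 and 1.057 CPM per kb there, and Bbc3 1.544, 1.645 and 1.723 CPM per kb.

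The genes most like Mdm2 and Cdkn1a over the 6 libraries were sought among 10076 other genes with a mean of at least 10 CPM, by Pearson's r of log2(CPM + 1). For Mdm2 they were Pan3 (r = 0.998), a subunit of an RNA deadenylase, Cspp1 (r = 0.996), a centrosome and cilium protein, and Ift88 (r = 0.996), a carrier of ciliary cargo. All 3 had every mutant library above every control, as Mdm2 did, so a high r in part restates that difference. Cspp1 measured 148.6, 144.2 and 159.9 CPM in mutants, against 100.1, 104.2 and 86.4 CPM in controls, and rose (log2 change 0.64 ± 0.10, adjusted p = 0.0387 in limma). That call was among those lost with 1 library left out. For Cdkn1a they were Tpp1 (r = 0.993), a lysosomal peptidase, Retreg3 (r = 0.992), a receptor for endoplasmic reticulum autophagy, and Adnp2 (r = 0.991), a zinc finger protein. All 3 had control replicate 2 as their highest library, as Cdkn1a did. With 6 points that share 6 libraries such values are reached by many genes, as 179 had an r above 0.95 with Mdm2 and 62 with Cdkn1a.

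Upstream of the members, 19 regulators of p53 were measured, and 0 passed the threshold. Of these, 4 had an unadjusted limma p below 0.05, all higher in mutants, beside 21.4% of all genes in either direction and 13.4% higher. The list's median log2 change was 0.06, beside 0.04 for all genes. Trp53, the gene of p53 itself, measured 33.0, 41.6 and 37.2 CPM in mutants, against 36.1, 52.1 and 37.6 CPM in controls, with overlapping groups (log2 change -0.15 ± 0.15, adjusted p = 0.596 in limma). Mdm4, the partner of Mdm2 in restraining p53, measured 202.9, 194.1 and 202.4 CPM in mutants, against 148.9, 177.1 and 138.6 CPM in controls. Its groups did not overlap (log2 change 0.37 ± 0.10, adjusted p = 0.106 in limma), and without control replicate 2 it passed the threshold, at an adjusted p of 0.0418, against 0.187 to 0.316 without any 1 of the other libraries. Atr, the kinase that signals stalled replication, measured 94.0, 90.2 and 98.7 CPM in mutants, against 76.0, 77.8 and 61.5 CPM in controls (adjusted p = 0.104 in limma).

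Of 38 further p53 targets measured, 0 passed the threshold, and the median log2 change was -0.03. Unadjusted, 1 was higher and 1 lower at p below 0.05 in limma, beside 21.4% of all genes in either direction. Igfbp3, a secreted binder of insulin-like growth factors, measured 121.3, 145.7 and 122.3 CPM in mutants, against 333.0, 177.7 and 236.2 CPM in controls (log2 change -0.89 ± 0.20, adjusted p = 0.0763 in limma). Its adjusted p was 0.0311 without control replicate 2 and 0.133 to 0.268 without any 1 of the other libraries, and the log2 change was -0.66 without control replicate 1. Polk, a DNA polymerase that copies past damage, measured 26.4, 28.7 and 27.3 CPM in mutants, against 22.5, 22.8 and 22.7 CPM in controls (adjusted p = 0.176 in limma).

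Genes that carry out cell death showed values on both sides of no change. In the BCL2 family, 0 of 15 measured genes passed, with a median log2 change of -0.02. Of the 15, 3 had an unadjusted limma p below 0.05, all lower in mutants. Of all genes, 21.4% had such a p in either direction and 8.07% lower in mutants. Bak1, the partner of Bax at the mitochondrial membrane, measured 16.4, 15.8 and 15.7 CPM in mutants, against 18.8, 23.8 and 21.5 CPM in controls (log2 change -0.39 ± 0.12, adjusted p = 0.133 in limma). Bnip3, a mitochondrial protein of the same family, measured 18.7, 21.7 and 19.3 CPM in mutants, against 23.6, 26.8 and 26.6 CPM in controls. Both had all mutants below all controls. Of 19 caspases, apoptosome components and their inhibitors, 0 passed, with a median log2 change of 0.05. Here 1 was higher and 1 lower at an unadjusted p below 0.05 in limma, beside 21.4% of all genes in either direction. Birc2, an inhibitor of apoptosis, averaged 73.1 ± 0.91 CPM in mutants and 59.9 ± 2.28 CPM in controls (SD, n = 3 each), and Htra2, a mitochondrial protease that binds such inhibitors, 9.51 ± 0.50 CPM in mutants and 12.96 ± 0.55 CPM in controls. Of 12 death receptors and adaptors beside Fas, 0 passed, with a median log2 change of -0.03. Of the 12, 2 had an unadjusted limma p below 0.05, both lower in mutants, again beside 21.4% of all genes in either direction and 8.07% lower. Ripk3, a kinase of necroptosis, averaged 6.02 CPM in mutants and 8.78 CPM in controls, and Tnfrsf12a, the receptor of TWEAK, 5.25 CPM in mutants and 8.07 CPM in controls.

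The lists of DNA damage and of the cell cycle had medians below 0. So did all other companion lists except the p53 regulators and the caspase list. Of 19 genes of DNA repair and checkpoints, with H2afx matched under its current symbol H2ax, 0 passed, and the median log2 change was -0.06. Unadjusted, 1 was higher and 3 lower at p below 0.05 in limma, beside 21.4% of all genes in either direction. Rad50, which holds broken DNA ends, averaged 100.6 ± 6.81 CPM in mutants and 76.2 ± 11.0 CPM in controls (SD, n = 3 each), and Rpa1, which coats single-stranded DNA, 68.3 ± 7.39 CPM in mutants and 81.1 ± 2.44 CPM in controls. Of 10 CDK inhibitors and relatives of Rrm2b and Ccng1, 0 passed. Their median log2 change was -0.34, the lowest of the 10 companion lists. Of these genes, 5 had an unadjusted limma p below 0.05, all lower in mutants, beside 21.4% of all genes in either direction and 8.07% lower. Rrm2, the subunit of ribonucleotide reductase used in S phase, measured 36.5, 42.2 and 39.8 CPM in mutants, against 51.2, 53.4 and 51.0 CPM in controls (log2 change -0.39 ± 0.09, adjusted p = 0.0854 in limma), whereas its p53-induced paralog Rrm2b lay at 0.16. Ccng2, the paralog of Ccng1, measured 31.2, 35.7 and 30.2 CPM in mutants, against 38.5, 43.2 and 41.3 CPM in controls. In the proliferation list, 0 of 17 passed, with a median log2 change of -0.16. At an unadjusted limma p below 0.05 there were 5, all lower in mutants, beside 21.4% of all genes in either direction and 8.07% lower. Ccne1, the cyclin of S phase entry, averaged 27.7 ± 1.85 CPM in mutants and 37.5 ± 1.28 CPM in controls (adjusted p = 0.0781 in limma, n = 3 each), and Mcm5, a replicative helicase subunit, 65.3 CPM in mutants and 83.3 CPM in controls.

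The last lists cover other forms of stress. In the list of the integrated stress and unfolded protein responses, 0 of 14 measured genes passed, and the median log2 change was -0.14. Unadjusted, 1 was higher and 1 lower at p below 0.05 in limma, beside 21.4% of all genes in either direction. Ddit3, which encodes CHOP, a factor of prolonged endoplasmic reticulum stress, measured 12.7, 12.4 and 15.4 CPM in mutants, against 9.44, 9.58 and 11.8 CPM in controls. Hmox1, a heme oxygenase induced by oxidants, averaged 6.41 CPM in mutants and 8.68 CPM in controls. Of 12 ribosomal protein and ribosome biogenesis genes, through which ribosome faults reach Mdm2, 0 passed, with a median log2 change of -0.05. Only 1 had an unadjusted limma p below 0.05, lower in mutants, beside 21.4% of all genes in either direction and 8.07% lower. That gene was Fbl, a nucleolar RNA methyltransferase, at 25.3 ± 3.62 CPM in mutants and 36.8 ± 6.61 CPM in controls (SD, n = 3 each), while Rps19 averaged 144.8 CPM in mutants and 173.5 CPM in controls.

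**Figure D4:**
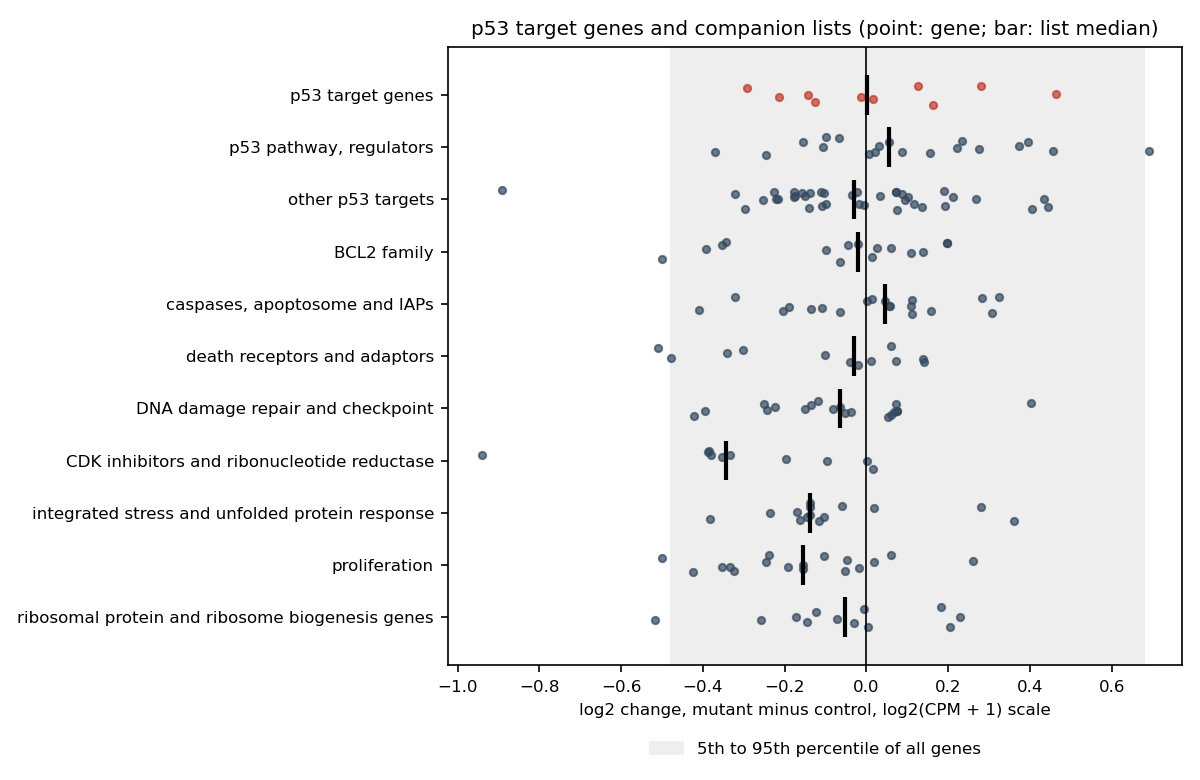
Log2 change, mutant minus control, on the log2(CPM + 1) scale (x axis) of each gene (points) in the 10 members (red, top row) and the companion lists (dark blue), with list medians as black bars and the band from the 5th to the 95th percentile of all genes in grey. All 10 members lie inside the band, and the CDK inhibitor list has the lowest median at -0.34.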

How the data were processed

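RNA of E14.0 soft palate was sequenced in 3 mutant and 3 control libraries. The submitters' processing notes name STAR and mm10. How reads were counted, and on which annotation, no source used here states. The deposited values are CPM, with samples as rows matched by title and 0.0001 added to each value, as found from the values; this was removed. Columns of per-sample values left unused numbered 0. Between 63.4 and 68.0% of low values were whole reads within 0.02, so whole reads were not recovered and no count model was used. Depth and reads per gene were estimated from the step between low values, and depth limits cover counting error only.

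log2(CPM + 1) was compared by limma (version 3.58.1, R 4.3.3). The fit had an intensity trend, no covariate and no filter on low values, with Benjamini-Hochberg adjustment over 21938 genes. Fold changes on this scale understate changes of low genes. The fit was tested on simulated data. The members and lists were chosen with earlier results of these data known. Named were all members, Trp53, Mdm4 and Ctnnb1, the called genes of each companion list or otherwise its 2 of smallest p, and the 3 genes most like Cdkn1a and Mdm2. No replicate number is shared between groups and no batch is given. A companion gene is not reported here by name.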

Additional observations from a re-analysis of the deposited data

How the results depend on the processing

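Of the 10 members, 0 passed in limma under each of the 11 alternatives, and 1 to 3 had an unadjusted p below 0.05; the third, with a prior variance without trend, was Bbc3. All 10 kept their direction under each alternative, except that Pmaip1 was 0.0038 with libraries scaled to the median of genes at or above the median level, and that with 1 library left out Pmaip1 ran from -0.12 to 0.15, Zmat3 from -0.0373 to 0.0652 and Cdkn1a from -0.24 to 0.0062. Trp53 ran from -0.25 to 0.0089. Over all genes, 105 passed as reported, 999 at a threshold of 0.1 and 0 with a prior variance without trend (4516 unadjusted, at p below 0.05 in limma). With 1 library left out 0 to 452 passed (2916 to 5002 unadjusted), 452 of them without control replicate 2 and 2 without mutant replicate 7. Of the companion genes, 3 passed at a threshold of 0.1 (Igfbp3, Rrm2 and Ccne1), and 0 to 5 with 1 library left out, the 5 without control replicate 2 including Trp73, Mdm4, Igfbp3 and Cdkn1c (Trp73 and Cdkn1c were named after their values were seen). The cause was not tested. No paired analysis was possible because the groups share no replicate number. With 28 to 64 reads a library, Fas and Bbc3 were the least precisely counted members.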
